A study of Mus musculus with 9 samples.

Results

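Heat shock chaperones are the proteins that bind unfolded polypeptides and help them fold, and 10 of their genes were followed here. They are Hspb1, Hspa1a, Hspa1b, Hspa8, Hsph1, Dnajb1, Hsp90aa1, Hsp90ab1, Hspd1 and Hspe1, chosen by symbol and matched through the Ensembl identifier of each gene. All 10 were found among the 49671 genes of the count tables, and all 10 were among the 31961 genes abundant enough to be tested. By common usage 6 members were taken as stress-inducible (Hspb1, Hspa1a, Hspa1b, Hsph1, Dnajb1 and Hsp90aa1), 2 as constitutive cytosolic chaperones (Hspa8 and Hsp90ab1) and 2 as the constitutive mitochondrial pair (Hspd1 and Hspe1).

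RNA was sequenced from cells of the melanocyte lineage of mouse skin in 9 libraries. The cells were sorted from dissociated dermis as positive for KIT, a receptor of this lineage, and negative for CD45, an immune cell marker. All mice were C57BL/6 females, named as wild-type for the adult and aged groups. Melanoblasts, the melanocyte precursors in newborn hair follicles, were taken from P0.5 pups (n = 3), where P0.5 is the age in days after birth. Melanocyte stem cells (McSC) in quiescence were taken from adults of 8 to 10 weeks (n = 4) and from aged mice of 24 months (n = 2). Both had telogen skin, whose follicles rest and hold no differentiated melanocytes. Pups and adults were bred in house from C57BL/6J stock. The 24-month mice came from an ageing colony at 21 months, so age and colony cannot be told apart. Each library pooled cells of several animals, so a p-value reflects only how pools vary.

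The heat shock proteins are grouped by size. HSP70 proteins bind short unfolded stretches in cycles of ATP hydrolysis that J-domain proteins start and nucleotide exchange factors end, HSP90 proteins act later on folded or nearly folded clients such as kinases and steroid receptors, small heat shock proteins hold unfolded proteins without ATP, and HSP60 with HSP10 forms a folding chamber in mitochondria. Most cells make a constitutive set all the time, and heat, oxidants or other protein damage release the transcription factor HSF1, which binds heat shock elements in the promoters of the inducible set. Enzymatic dissociation and sorting are themselves known to induce heat shock and immediate early genes in freshly isolated cells.

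Levels are given as CPM, counts per megacount of the library after TMM scaling, in the order of the replicate numbers, with group means ± SD. Library totals were 23688288 to 33710117 counts in melanoblasts, 19956424 to 21572026 in adult and 12594770 to 16362560 in aged McSC, and 3 counts, the limit that a count of 0 allows, were worth 0.117 to 0.187 CPM by counting error alone. The sorted lineage was present in all groups: Kit averaged 2733, 985.0 and 790.3 CPM and Sox10, a lineage transcription factor, 593.5, 224.8 and 138.3 CPM in melanoblasts, adult and aged McSC. Melanoblast replicate 3 stood apart on a principal component that held 11.8% of the variance. Adult replicate 2 lay nearest to the melanoblasts on the leading component (56.7%).

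Adult McSC held far more RNA of the small chaperone Hspb1 and of the inducible HSP70 pair Hspa1a and Hspa1b than melanoblasts did, and less of Hsp90ab1 and of the mitochondrial chaperonin Hspd1. The inducible J-domain partner Dnajb1 and the HSP110 gene Hsph1 rose by smaller amounts. In all, 5 of the 10 genes rose and 2 fell by edgeR's quasi-likelihood test with Benjamini-Hochberg adjustment over all genes, where 33.4% of the genes tested changed, 15.1% upward and 18.3% downward. All 5 rises were among the 6 inducible genes, and both falls were among the 4 constitutive ones. The classes were set with earlier results of these data known, so this split is a description only. The groups did not overlap for 6 of the 10 genes, against 39.3% of all genes tested. These differences are per unit of sequenced RNA of a sorted pool, and a change in the share of cells that carry a transcript cannot be told apart from a change in the amount per cell.

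**Figure D1:**
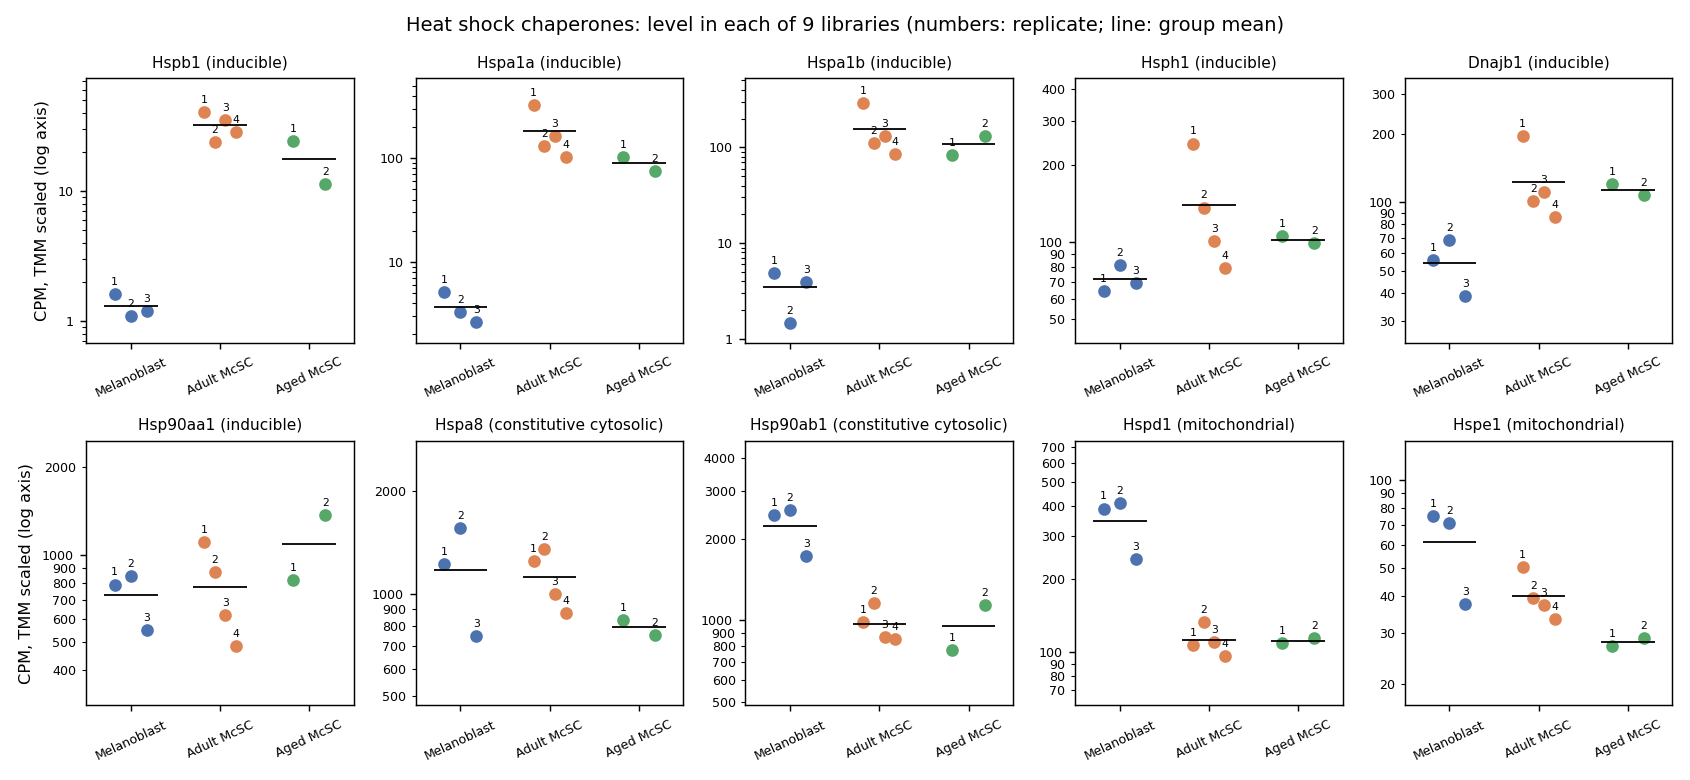
Level of each chaperone gene in every library (CPM, TMM scaled, log axis), with points numbered by replicate and a line at the group mean; each panel has its own range. Hspb1, Hspa1a and Hspa1b are higher in all 6 McSC libraries than in all 3 melanoblast libraries, Hsp90ab1 and Hspd1 are lower in all 6, and adult replicate 1 is the highest adult library in all 6 inducible panels.

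Hspa1a and Hspa1b encode HSP70 proteins that are nearly the same and lie side by side on chromosome 17 (mm10, chr17:34969190-34972156 and chr17:34956436-34959238, both on the minus strand). In melanoblasts Hspa1a stood at 5.10, 3.28 and 2.66 CPM (82, 63 and 53 counts), in adult McSC at 327.0, 130.5, 165.0 and 103.0 CPM, and in aged McSC at 103.5 and 75.6 CPM. Even the lowest McSC library was more than an order of magnitude above the highest melanoblast library. The mean went from 3.68 ± 1.27 CPM in melanoblasts to 181.4 ± 100.3 CPM in adult McSC, a 49.5-fold difference (log2 fold change 5.63, SE 0.404, adjusted p = 6.15e-10). Hspa1b stood at 4.92, 1.46 and 3.96 CPM in melanoblasts, at 291.7, 112.2, 131.2 and 85.3 CPM in adult McSC and at 83.2 and 132.8 CPM in aged McSC. It too was clear of overlap, with a 45.2-fold difference between adult McSC and melanoblasts (log2 fold change 5.50, SE 0.488, adjusted p = 1.22e-07).

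The split of reads between these neighbours is uncertain. Their coding sequences matched at 1915 of 1926 aligned positions (99.4%), and 42.0% of the 126-base stretches of the Hspa1a transcript, the length of a read, also occur whole in the Hspa1b transcript. The ratio of Hspa1a to Hspa1b counts was 1.12 to 1.26 in the 4 adult libraries but 0.671 to 2.25 in the melanoblasts, where the counts were low, and 1.24 and 0.569 in the aged libraries. Fitted as a single feature, the 2 genes together rose by 5.56 on the log2 scale in adult McSC (adjusted p = 1.12e-09). A gene model on the opposite strand, Gm20481, overlaps Hspa1a by 2225 bases and was listed with 0 counts in all 9 libraries.

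Hspb1 encodes HSP27, a small heat shock protein that holds unfolded proteins and acts on the actin cytoskeleton (chr5:135887919-135889563, plus strand). It stood at 1.62, 1.09 and 1.20 CPM in melanoblasts (26, 21 and 24 counts), at 41.0, 23.8, 35.5 and 28.3 CPM in adult McSC and at 24.3 and 11.5 CPM in aged McSC. No McSC library overlapped the melanoblasts, and aged replicate 2 was the lowest McSC library. Against a melanoblast mean of 1.31 ± 0.276 CPM, the adult mean of 32.2 ± 7.63 CPM was 24.7-fold higher (log2 fold change 4.63, SE 0.344, adjusted p = 2.69e-10). The melanoblast level was low enough to be near a background of counts. On 1915 olfactory and vomeronasal receptor genes, which skin is not known to use, the 95th percentile was 1.06, 0.745 and 1.00 CPM in the same 3 libraries. That percentile was higher in McSC, at 1.41 to 2.30 CPM in adult and 2.02 and 2.26 CPM in aged libraries.

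HSF1 is known to bind the promoters of these 3 genes, and its part in their rises was not tested. These promoters are shown because the genes had the largest rises in McSC against melanoblasts. They are the 250 bases before the RefSeq transcript start (GRCm38.p6, which shares the coordinates of mm10), 5′ to 3′ on the gene's strand, with no annotated exon of another gene in them. Capitals mark each match to a heat shock element dimer, searched as GAANNTTC and TTCNNGAA (each reads the same on both strands, and the 2 forms overlap where repeats adjoin).
Hspb1, chr5:135887669-135887918, plus strand: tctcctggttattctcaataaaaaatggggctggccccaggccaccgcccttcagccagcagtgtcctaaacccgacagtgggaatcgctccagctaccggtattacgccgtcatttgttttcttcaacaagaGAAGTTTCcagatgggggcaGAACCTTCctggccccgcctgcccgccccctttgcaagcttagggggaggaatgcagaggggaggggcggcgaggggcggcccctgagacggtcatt
Hspa1a, chr17:34972157-34972406, minus strand: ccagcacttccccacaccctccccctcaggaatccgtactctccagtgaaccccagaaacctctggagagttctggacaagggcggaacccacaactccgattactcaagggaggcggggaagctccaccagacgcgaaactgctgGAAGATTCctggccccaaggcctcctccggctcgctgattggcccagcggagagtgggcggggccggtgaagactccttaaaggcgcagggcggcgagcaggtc
Hspa1b, chr17:34959239-34959488, minus strand: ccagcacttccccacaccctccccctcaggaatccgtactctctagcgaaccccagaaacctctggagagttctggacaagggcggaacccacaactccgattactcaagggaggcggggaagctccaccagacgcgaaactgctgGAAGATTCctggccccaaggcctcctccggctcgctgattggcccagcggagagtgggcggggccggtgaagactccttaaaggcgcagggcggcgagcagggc
Hspb1 holds 2 dimers, from -117 to -110 and from -97 to -90 relative to the transcript start. Hspa1a and Hspa1b each hold 1 at the same place, from -104 to -97, and a CCAAT box from -67 to -63. Their windows are identical at 247 of 250 bases (98.8%), so the 2 matches are a single observation of shared sequence.

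RefSeq windows were found for 7 of the 10 genes, and Hspa8, Hsp90aa1 and Hsp90ab1 were not matched. A dimer of either form was present in 5 of the 7, or 4 of 6 with the near-identical Hspa1a and Hspa1b windows counted once, against 12.8% of 32851 promoter windows of the same length. The genes were chosen as heat shock chaperones, whose inducible set is known to carry such elements, so this contrast is a description only. Besides the 3 genes above, those with a dimer were Hsph1, which rose, and Hspe1, which did not pass the main test. The matching stretches, shown because 1 belongs to a gene that rose and the other to one that did not, are 30 bases each.
Hsph1, chr5:149636351-149636380, minus strand: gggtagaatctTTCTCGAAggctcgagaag
Hspe1, chr1:55088053-55088082, plus strand: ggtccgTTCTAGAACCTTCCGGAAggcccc
The Hsph1 stretch overlaps an annotated exon of the gene itself, and the Hspe1 stretch one of its neighbour Hspd1. In Hspe1, 3 overlapping dimers form 2 trimers, in which the repeat unit adjoins itself once more in inverted order, an arrangement found in 0.466% of all windows. No dimer matched in the windows of Dnajb1, which rose, or Hspd1, which fell. Hspd1 and Hspe1 start close together in opposite directions, and the Hspd1 window ends at the Hspd1 start. The Hspe1 stretch lies past that start, inside Hspd1, so it fell outside the Hspd1 window. These windows therefore do not show that the pair differ in such elements. A match in these letters is a description of sequence and was not tested for binding. CCAAT, searched on both strands, was found in the windows of Hspa1a, Hspa1b, Hsph1 and Dnajb1 and in 33.8% of all windows, and TATAAA in none of the 7 and 12.4% of all windows.

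**Figure D2:**
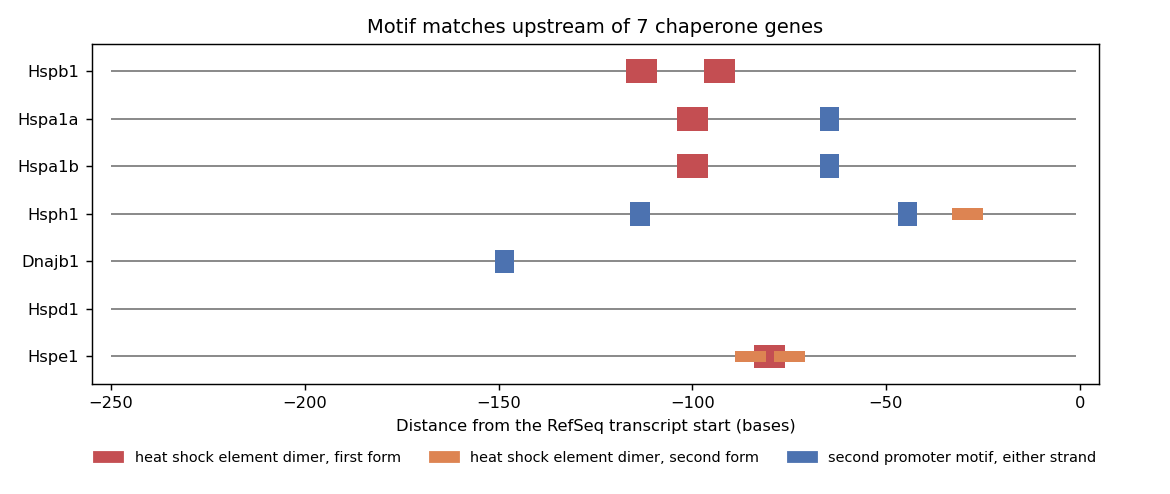
Positions of the motif matches in the windows of 7 genes, as the distance in bases from the RefSeq transcript start; red bars are dimers of the GAANNTTC form, orange bars those of the TTCNNGAA form and blue bars CCAAT boxes. The dimers of Hspb1, Hspa1a, Hspa1b and Hspe1 lie between -117 and -72, and that of Hsph1 lies at -33. The windows of Dnajb1 and Hspd1 have none. The Hspe1 dimers lie past the Hspd1 start, inside Hspd1 and outside its window.

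The other inducible genes started from higher levels in melanoblasts and moved less. Dnajb1 encodes the J-domain protein HSP40 that activates HSP70 (chr8:83608193-83612653). It stood at 55.9, 68.6 and 38.5 CPM in melanoblasts, at 195.4, 101.4, 111.5 and 85.8 CPM in adult McSC and at 120.2 and 107.8 CPM in aged McSC. All McSC libraries were above all melanoblast libraries, and the adult mean was 2.27-fold higher (log2 fold change 1.19, SE 0.270, adjusted p = 0.00148). Hsph1 encodes HSP110, which exchanges nucleotide on HSP70 and helps it dissolve aggregates (chr5:149614287-149636376). Its levels were 64.5, 81.7 and 69.2 CPM in melanoblasts, 243.9, 136.9, 101.2 and 79.0 CPM in adult McSC and 105.6 and 99.1 CPM in aged McSC. Adult replicate 4 lay within the melanoblast range, and the rise of 1.95-fold (log2 fold change 0.97, SE 0.287, adjusted p = 0.0120) was lost with limma voom (0.65, adjusted p = 0.0539) and without melanoblast replicate 1 (0.89, adjusted p = 0.0576). Without adult replicate 1 the log2 fold change was 0.64.

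Hsp90aa1, which encodes the inducible HSP90 alpha, did not follow the others (chr12:110690605-110702728). It stood at 788.8, 845.3 and 548.9 CPM in melanoblasts, 1109, 867.9, 621.6 and 483.4 CPM in adult McSC and 814.8 and 1367 CPM in aged McSC. The adult values enclosed the melanoblast values on both sides, and the difference did not pass the test (log2 fold change 0.08, SE 0.274, adjusted p = 0.833). The call depended on the scaling. With factors computed from 4268 abundant genes the log2 fold change was 0.92 (adjusted p = 0.0228), a setting that takes the all-gene median of 0.39 to 1.15, and the 4836 higher and 5840 lower calls to 10416 higher and 1985 lower. Under it the other called genes kept their calls, at 5.45 for Hspb1, 6.51 for Hspa1a, 6.34 for Hspa1b, 1.79 for Hsph1, 2.05 for Dnajb1, -0.41 for Hsp90ab1 (adjusted p = 0.0408) and -0.82 for Hspd1 (adjusted p = 0.000341).

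Among the constitutive cytosolic genes, Hspa8 did not pass the test and Hsp90ab1 fell. Hspa8 encodes HSC70, the everyday HSP70 that also strips clathrin from vesicles and delivers proteins to lysosomes (chr9:40800984-40810087, with 3 small nucleolar RNA genes inside it). It stood at 1219, 1564 and 748.1 CPM in melanoblasts, 1243, 1352, 994.5 and 876.2 CPM in adult McSC and 834.9 and 753.2 CPM in aged McSC. The adult values lay within the melanoblast range, while both aged values lay below all adult values. The adult estimate relative to melanoblasts, on the log2 scale, was -0.08 (SE 0.252, adjusted p = 0.833). Hspa8 too was called higher in adult McSC with factors from abundant genes (0.75, adjusted p = 0.00726). Hsp90ab1 encodes HSP90 beta, the constitutive cytosolic HSP90 (chr17:45567775-45573271). It stood at 2446, 2556 and 1724 CPM in melanoblasts, 989.2, 1159, 863.9 and 852.5 CPM in adult McSC and 774.2 and 1135 CPM in aged McSC. No McSC library reached the lowest melanoblast library, and the level in adult McSC was 2.32-fold lower (log2 fold change -1.21, SE 0.236, adjusted p = 0.000306).

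The mitochondrial pair encodes HSP60 (Hspd1) and its lid HSP10 (Hspe1), which are transcribed in opposite directions from a shared start region (chr1:55077835-55088243, minus strand, and chr1:55088132-55091307, plus strand), where the gene models overlap by 112 bases. Hspd1 stood at 390.0, 409.6 and 242.7 CPM in melanoblasts, 107.4, 133.6, 110.6 and 96.9 CPM in adult McSC and 109.3 and 114.1 CPM in aged McSC. The 6 McSC libraries lay close together and below all melanoblasts, with a 3.10-fold lower level in adult McSC (log2 fold change -1.63, SE 0.225, adjusted p = 5.07e-06). Hspe1 stood at 75.2, 71.3 and 37.7 CPM in melanoblasts, 50.4, 39.4, 37.4 and 33.3 CPM in adult McSC and 27.1 and 28.7 CPM in aged McSC. Melanoblast replicate 3 was within the adult range, and the adult difference of -0.61 missed the threshold (SE 0.239, adjusted p = 0.0509). Without that library it passed (-0.87, adjusted p = 0.00234), as it did with limma voom on all libraries (-0.87, adjusted p = 0.000679). With factors from abundant genes it was 0.24 (adjusted p = 0.358). Annotated pseudogenes of Hspd1 (4) and Hspe1 (5) held 788 and 555 counts over all libraries, against 34523 and 8417 counts on the genes, so reads could be shared with such copies.

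**Figure D3:**
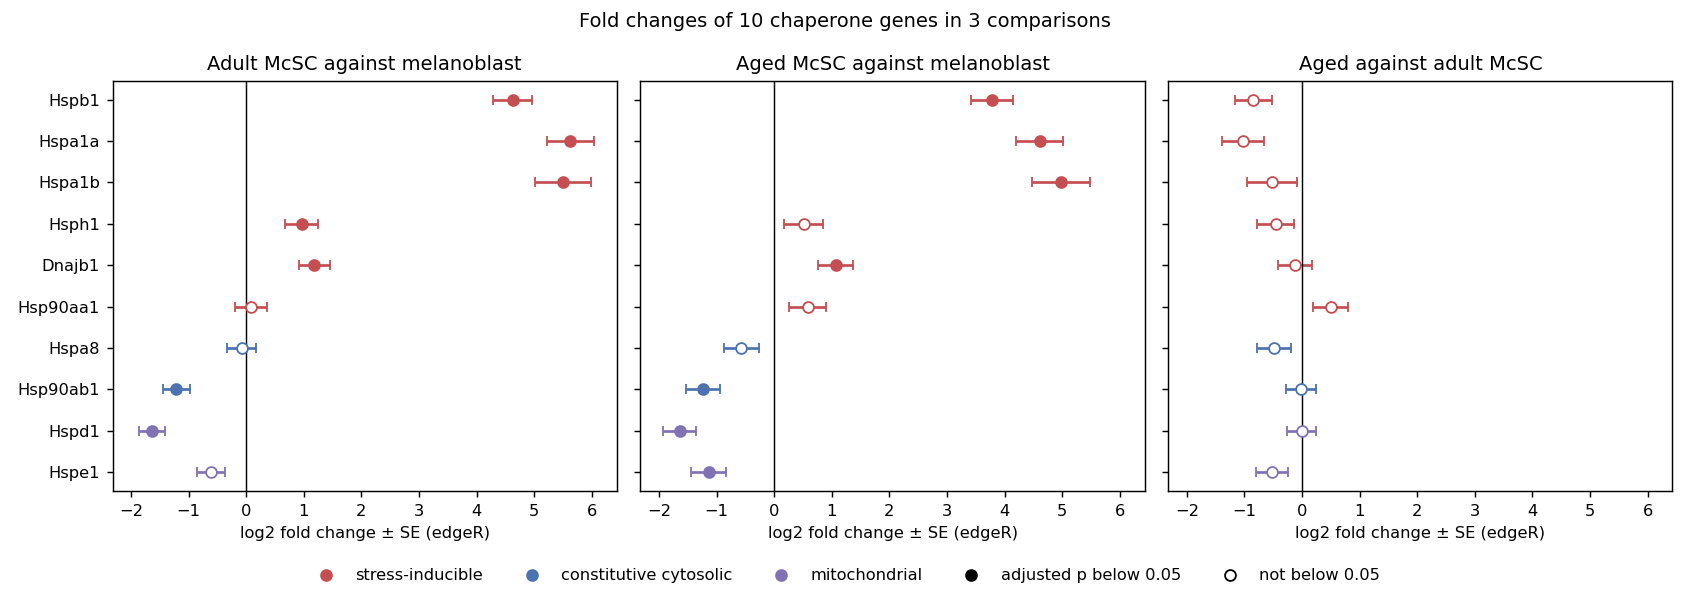
Log2 fold change ± SE of the 10 genes in the 3 comparisons (edgeR), coloured by class, with filled points where the adjusted p was below 0.05. Hspb1, Hspa1a and Hspa1b lie between 3.78 and 5.63 against melanoblasts in both McSC groups, and no point is filled for aged against adult McSC.

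Pairs of genes with related products were compared within each library, where the scaling between libraries cancels. The ratio of the inducible to the constitutive HSP70 counts (Hspa1a and Hspa1b summed, over Hspa8) was 0.00822, 0.00303 and 0.00886 in melanoblasts, 0.498, 0.179, 0.298 and 0.215 in adult McSC and 0.224 and 0.277 in aged McSC. Inducible HSP70 therefore went from under a hundredth of the Hspa8 count in melanoblasts to between 0.179 and 0.498 of it in McSC. The ratio of Hsp90aa1 to Hsp90ab1 was 0.322, 0.331 and 0.318 in melanoblasts, 1.12, 0.749, 0.720 and 0.567 in adult McSC and 1.05 and 1.20 in aged McSC. It was nearly constant in melanoblasts (0.324 ± 0.00628) and higher in all 6 McSC libraries, although Hsp90aa1 itself did not pass the test. The ratio of Hspd1 to Hspe1 was 5.19, 5.74 and 6.44 in melanoblasts, 2.13, 3.39, 2.95 and 2.91 in adult McSC and 4.03 and 3.98 in aged McSC, so that the 3 groups did not overlap. The ratios are given as a description and were not tested.

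**Figure D4:**
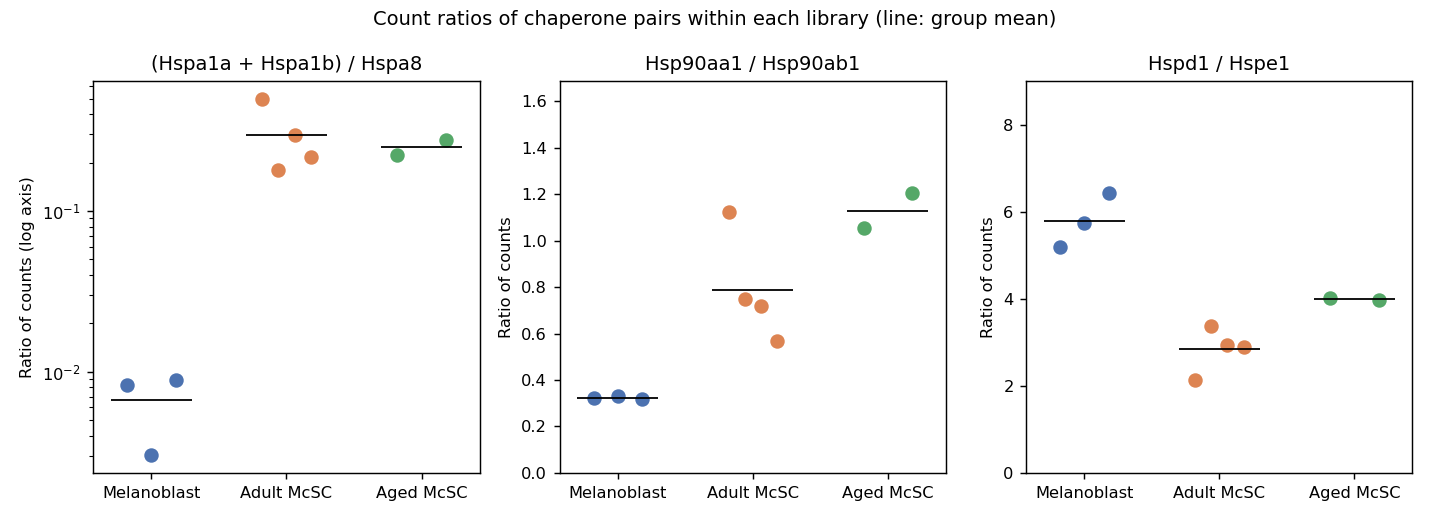
Ratio of counts within each library for the inducible over the constitutive HSP70 genes (log axis), Hsp90aa1 over Hsp90ab1 and Hspd1 over Hspe1; points are libraries in replicate order and lines are group means. The first and second ratios are higher in all 6 McSC libraries than in melanoblasts, and the third is lower in all 6.

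The 10 genes together took 5051, 5603 and 3417 CPM in melanoblasts, 4598, 4057, 3172 and 2724 CPM in adult McSC and 2997 and 3824 CPM in aged McSC, ranges that overlap. The inducible genes made up 18.2%, 17.9% and 19.4% of that sum in melanoblasts, 48.0%, 33.8%, 36.8% and 31.8% in adult McSC and 41.8% and 46.9% in aged McSC. That share was higher in all McSC libraries, while the inducible sum itself overlapped, at 664.5 to 1001 CPM in melanoblasts and 864.9 to 2208 CPM in adult McSC. The constitutive cytosolic sum was 2472 to 4120 CPM in melanoblasts and 1729 to 2511 CPM in adult McSC. On average Hsp90aa1 made up most of the inducible sum in every group. It took 727.7 of 862.3 CPM in melanoblasts, 770.4 of 1403 CPM in adult and 1091 of 1523 CPM in aged McSC.

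Levels of different genes were set side by side per kilobase of exon. Hsp90ab1 had the highest mean in all 3 groups, at 748 ± 151 CPM per kilobase in melanoblasts, 322 ± 47.6 in adult and 318 ± 85.0 in aged McSC. In melanoblasts Hspa8 (274 ± 95.2), Hsp90aa1 (185 ± 40.0) and Hspd1 (132 ± 34.5) followed, and Hspb1, Hspa1a and Hspa1b shared the last places at 1.27 ± 0.268, 1.24 ± 0.428 and 1.23 ± 0.637, which do not differ beyond their spread. In adult McSC the order after Hsp90ab1 was Hspa8 (260 ± 51.0), Hsp90aa1 (196 ± 70.2), Hspa1a (61.1 ± 33.8), Hspa1b (55.3 ± 33.2), Hspd1 (42.4 ± 5.85), Dnajb1 (38.6 ± 15.3), Hspb1 (31.2 ± 7.40), Hspe1 (27.2 ± 4.94) and Hsph1 (19.3 ± 10.1). Neighbours in this order overlapped within their SD, both from Hsp90ab1 down to Hsp90aa1 and from Hspa1a downward. In aged McSC Hsp90aa1 (277 ± 99.3) stood before Hspa8 (185 ± 13.4), within 1 SD of it. The lower places there, from Hspd1 (42.3 ± 1.30) to Hsph1 (14.1 ± 0.625), were taken by the same 7 genes as in adult McSC. Per kilobase of the longest transcript 11 of the 30 levels moved by more than 1 SD, and in adult McSC Hspe1 stood at 41.6 and Hsph1 at 29.4, which puts Hspe1 level with Dnajb1 (41.2) and above Hspb1 (34.6).

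None of the 10 genes passed in aged against adult McSC, a comparison in which edgeR called 0.303% of all genes (97 of 31961, with 17 or 0.0532% up and 80 or 0.250% down). Unadjusted, 2 of the 10 had a p under 0.05, Hspa1a (log2 fold change -1.02, SE 0.365, adjusted p = 0.354) and Hspb1 (-0.84, SE 0.314, adjusted p = 0.376), where 10.2% of all genes did. Limma voom called Hspb1 (-0.91, adjusted p = 0.0386) and the fit without a filter called Hspa1a (-1.03, adjusted p = 0.0405), whereas DESeq2 called none. Much of the Hspa1a difference came with adult replicate 1, for without it the log2 fold change was -0.54, and for Hspa1b -0.01 in place of -0.52. The Hspb1 value was -1.52 without aged replicate 1 and -0.37 without aged replicate 2, and neither passed. The remaining estimates were -0.45 for Hsph1, -0.12 for Dnajb1, 0.50 for Hsp90aa1, -0.49 for Hspa8, -0.02 for Hsp90ab1, -0.01 for Hspd1 and -0.52 for Hspe1, with SE from 0.255 to 0.323. Only Hspa8 and Hspe1 were lower in both aged libraries than in all 4 adult libraries, and 27.7% of all genes showed such a separation in either direction.

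Aged McSC set against melanoblasts gave 4 rises and 3 falls among the 10 genes, where 40.7% of all genes changed (20.4% up and 20.3% down). The comparison shares its melanoblast libraries with the adult one. Hspb1 was 13.8-fold higher (log2 fold change 3.78, SE 0.358, adjusted p = 3.64e-08), Hspa1a 24.4-fold (4.61, SE 0.407, adjusted p = 3.52e-08), Hspa1b 31.5-fold (4.98, SE 0.501, adjusted p = 1.08e-06) and Dnajb1 2.10-fold (1.07, SE 0.308, adjusted p = 0.00873). Hsp90ab1 fell by 1.23 (SE 0.295, adjusted p = 0.00218), Hspd1 by 1.64 (SE 0.285, adjusted p = 0.000102) and Hspe1 by 1.14 (SE 0.300, adjusted p = 0.00468) on the log2 scale. Hsph1 (0.51, adjusted p = 0.213), Hsp90aa1 (0.58, adjusted p = 0.146) and Hspa8 (-0.57, adjusted p = 0.136) did not pass. The stricter filter called Hsph1 (1.20, adjusted p = 0.0184) and Hsp90aa1 (1.28, adjusted p = 0.00587) higher, and the factors from abundant genes also called both (1.64 and 1.73) and Hspa8 (0.61, adjusted p = 0.0293) higher. The fit of 2 groups called Hsph1 (0.62, adjusted p = 0.0433). Hspa8 was instead called lower with limma voom (-0.63, adjusted p = 0.00764) and without melanoblast replicate 3 (-0.81, adjusted p = 0.0165). Groups were separate for 8 of the 10 genes, against 66.2% of all genes. The falls of Hsp90ab1 and Hspe1 were not called without aged replicate 1 (-0.93 and -1.04, adjusted p = 0.0619 and 0.0579) or with factors from abundant genes (-0.08 and 0.04), and that of Hspe1 also not without aged replicate 2 (-1.05, adjusted p = 0.0511) or with the stricter filter (-0.42, adjusted p = 0.191).

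The inducible genes varied together among the adult pools. Adult replicate 1 was the highest of the 4 adult libraries for all 6 inducible genes, replicate 4 the lowest for 5 and replicate 2 for 1. The SD of log2 CPM among adult libraries was 0.72 for Hspa1a, 0.76 for Hspa1b, 0.70 for Hsph1, 0.51 for Dnajb1 and 0.53 for Hsp90aa1, where the median SD of the 200 genes nearest in level was between 0.24 and 0.26 for each. The constitutive genes varied about as much as genes of their level, at 0.29 for Hspa8, 0.21 for Hsp90ab1, 0.19 for Hspd1 and 0.25 for Hspe1 against 0.25 to 0.26. Hspb1 lay between, at 0.35 against 0.29. In melanoblasts the classes did not split this way. Hspa8 (0.54 against 0.29), Hspd1 (0.42 against 0.28) and Hspe1 (0.55 against 0.31) exceeded genes of their level, as did Hspa1a, Hspa1b and Dnajb1. Hsph1 (0.17 against 0.27) and Hspb1 (0.27 against 0.36) lay below theirs. Without adult replicate 1 the log2 fold changes against melanoblasts were 5.28 for Hspa1a and 5.10 for Hspa1b, and 5 members still rose and 2 fell. That library also had the highest value of 9 of 19 immediate early genes, where adult replicates 2, 3 and 4 had that of 4, 6 and 0. Adult replicate 1 had the lowest summed melanocyte marker level of the adult libraries (4174 CPM).

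Immediate early genes, which dissociation is known to induce, moved with the inducible chaperones across groups. Of 19, 18 rose in adult McSC against melanoblasts and none fell, with a median log2 fold change of 1.897 (0.39 over all genes). Their summed level was 1030 to 1669 CPM in melanoblasts, 5529 to 7828 in adult and 7059 to 7310 in aged McSC, without overlap between melanoblasts and McSC. Egr1 went from 159.7 ± 72.7 to 1430 ± 287 CPM (log2 fold change 3.16, adjusted p = 5.06e-08), Fosb from 153.5 ± 44.6 to 1091 ± 147 CPM (2.83, adjusted p = 1.43e-08), Junb rose by 2.90 and Egr2 by 2.84, all genes of rapid-response transcription factors. Their part in the chaperone differences was not tested.

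Markers of other skin cells moved with the groups as well. All 13 keratinocyte and hair follicle markers rose in adult McSC, from a summed 100.02 to 283.4 CPM in melanoblasts to 1254 to 2697 CPM, with 978.4 to 1185 CPM in aged McSC, and Dsp, a desmosome gene, went from 50.7 to 386.2 CPM. Schwann cell markers rose for 4 of 8, macrophage and dendritic cell markers for 4 of 8 (24.9 to 42.0 CPM in melanoblasts and 48.3 to 69.9 CPM in adult McSC) and endothelial markers for 5 of 7 (51.2 to 96.3 and 82.2 to 288.0 CPM). Mast cell markers, of which 2 fell among 7 tested, summed to 20.1 to 33.7 and 9.66 to 14.8 CPM. Fibroblast markers, with 1 risen and 3 fallen of 6, summed to 540.7 to 2046 and 462.2 to 925.0 CPM. In aged against adult McSC, 5 of 8 Schwann cell and 3 of 6 fibroblast markers fell. Melanocyte lineage markers fell for 8 of 9, from 13959 to 25595 CPM to 4174 to 10441 CPM. Among the most abundant markers of these lists, the averages in melanoblasts, adult and aged McSC were 9098, 3185 and 4349 CPM for Dct (melanocytes) and 590.2, 170.0 and 23.0 CPM for Col3a1 (fibroblasts). Cd68 (macrophages) averaged 18.4, 24.4 and 38.0 CPM, Pecam1 (endothelium) 20.3, 41.0 and 17.0 CPM and Cpa3 (mast cells) 12.9, 2.10 and 0.850 CPM. No marker was at 0 in all libraries, and the part of these cells in the chaperone differences was not tested.

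The wider chaperone system was read from lists, beside all genes tested (4836 up, 5840 down, median 0.39). With factors from abundant genes, the counts over all 31961 genes tested were 10416 up and 1985 down (median 1.15). Of 8 regulators of the heat shock response, none rose and 3 fell (median 0.09), though under the abundant-gene factors the counts were 3 up and 1 down (0.81). Hsf1, the master regulator, which is named here after its values were seen, averaged 43.6 CPM in melanoblasts and 54.2 CPM in adult McSC and did not pass. Hsbp1, a small protein that binds heat shock factor trimers, fell from 222.7 to 76.3 CPM (log2 fold change -1.54, adjusted p = 2.43e-05), Hsf2 fell by 0.85 (adjusted p = 0.00946) and Crebbp, an acetyltransferase, by 0.69 (adjusted p = 0.0175). The Hsf2 and Crebbp falls were lost with factors from abundant genes and with the stricter filter (-0.38, adjusted p = 0.142, and -0.21, adjusted p = 0.223). That of Crebbp was also lost with no filter (adjusted p = 0.0779), without the mitochondrial genome (adjusted p = 0.0507) and without melanoblast replicate 1 or 2 or adult replicate 1, 3 or 4 (adjusted p from 0.0507 to 0.0932).

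Among the other small heat shock proteins 2 of 7 tested rose and none fell (median 0.61). Cryab, the alpha-B crystallin that forms mixed oligomers with HSP27, stood at 1.56, 2.61 and 1.76 CPM in melanoblasts, at 19.0, 15.0, 17.6 and 17.4 CPM in adult McSC and at 5.98 and 4.17 CPM in aged McSC. The 3 groups were separate. Cryab rose by 3.12 from melanoblasts to adult McSC (adjusted p = 4.47e-08) and fell by 1.76 from adult to aged McSC (SE 0.335, adjusted p = 0.0143), on the log2 scale. The fall was not called without aged replicate 2 (-1.49, adjusted p = 0.956), without adult replicate 1 or 3 (adjusted p = 0.0624 and 0.0617) or with factors from abundant genes (adjusted p = 0.155). Hspb8, which works with the exchange factor BAG3, rose from 3.26 ± 1.11 to 22.0 ± 2.86 CPM (log2 fold change 2.76, adjusted p = 7.71e-08) and averaged 20.0 ± 3.43 CPM in aged McSC.

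Of 11 other HSP70 and HSP110 genes, 2 rose and 4 fell (median -0.27), or 4 and 2 with factors from abundant genes. Hspa12a, a distant HSP70 relative, stood at 4.92, 6.52 and 1.96 CPM in melanoblasts, 47.1, 25.1, 41.1 and 34.5 CPM in adult McSC and 8.01 and 7.18 CPM in aged McSC. It was high in all adult libraries alone, rising by 3.05 (adjusted p = 2.11e-07) and falling by 2.28 from adult to aged McSC (SE 0.377, adjusted p = 0.00340). The fall was not called without aged replicate 2 (-2.17, adjusted p = 0.291) or with factors from abundant genes (-1.97, adjusted p = 0.0604). Hspa2, an HSP70 best known from the testis, rose by 3.07 (adjusted p = 1.19e-06) and stood at 69.6 and 288.5 CPM in the 2 aged libraries. Hspa14, a ribosome-associated HSP70, fell by 1.58 (adjusted p = 8.58e-06) and Hspa4, an HSP110 family member, by 1.42 (adjusted p = 4.28e-05).

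Most co-chaperones that moved fell, though the direction of the calls depended on the scaling. Of 16 J-domain partners 2 rose and 8 fell (median -0.56, against 0.39 over all genes), or 7 and 1 with factors from abundant genes. Under those factors their median was 0.23, still below the 1.15 of all genes, of which 10416 rose and 1985 fell. Dnaja4 rose from 1.49 to 6.50 CPM (log2 fold change 2.12, adjusted p = 0.000121), and Dnajb11 of the endoplasmic reticulum (-1.35, adjusted p = 6.79e-05), Dnajb12 (-1.27) and Dnajc5 (-1.06), which acts on vesicles, fell. Of 10 HSP70 exchange and client-sorting factors 1 rose and 4 fell (median -0.46), or 1 and 1 with those factors. The rise was Bag3, which links HSP70 and small heat shock proteins to autophagy, from 52.5 ± 15.1 to 114.0 ± 15.5 CPM (log2 fold change 1.12, adjusted p = 0.000716), and St13 (-1.54, adjusted p = 1.23e-05), Bag1 (-0.99) and Bag5 (-0.97) fell. Of 16 HSP90 co-chaperones and other HSP90 genes 1 rose and 10 fell (median -0.74), or 3 and 1 with factors from abundant genes. Hsp90b1, the HSP90 of the endoplasmic reticulum, fell by 1.45 (adjusted p = 4.35e-05), Cdc37, which brings kinases to HSP90, by 1.11, the phosphatase gene Ppp5c by 1.17 and Ahsa1, which stimulates the HSP90 ATPase, by 1.02. The falls of Bag1, Bag5, Dnajb12, Dnajc5, Cdc37, Ppp5c and Ahsa1 were not called with those factors.

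Genes of mitochondrial folding and of the cytosolic chaperonin moved in the direction of Hspd1. Of 12 mitochondrial genes none rose and 8 fell (median -0.90, or -0.12 with 2 falls under factors from abundant genes), among them the exchange factor Grpel2 (-1.51, adjusted p = 3.17e-05), the protease Lonp1 (-1.25, adjusted p = 7.67e-05), the mitochondrial HSP70 Hspa9 (-1.10, adjusted p = 0.000828) and Hscb (-1.19, adjusted p = 0.000973), the last 2 of which were not called with those factors. Of 14 subunits of the TRiC chaperonin and of prefoldin, which fold actin and tubulin, none rose and 10 fell (median -1.26), and 7 still fell with factors from abundant genes (-0.46). Cct5 fell from 227.4 ± 60.4 to 73.3 ± 12.7 CPM (log2 fold change -1.63, adjusted p = 6.28e-06), Cct6a by 1.62, Cct8 by 1.44 and Cct2 by 1.39. In aged against adult McSC, Cryab and Hspa12a were the 2 genes of these chaperone lists that passed, both downward, and no immediate early gene passed. Schwann cell and fibroblast markers fell in the same comparison, as counted above, and their part in the Cryab and Hspa12a falls was not tested.

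**Figure D5:**
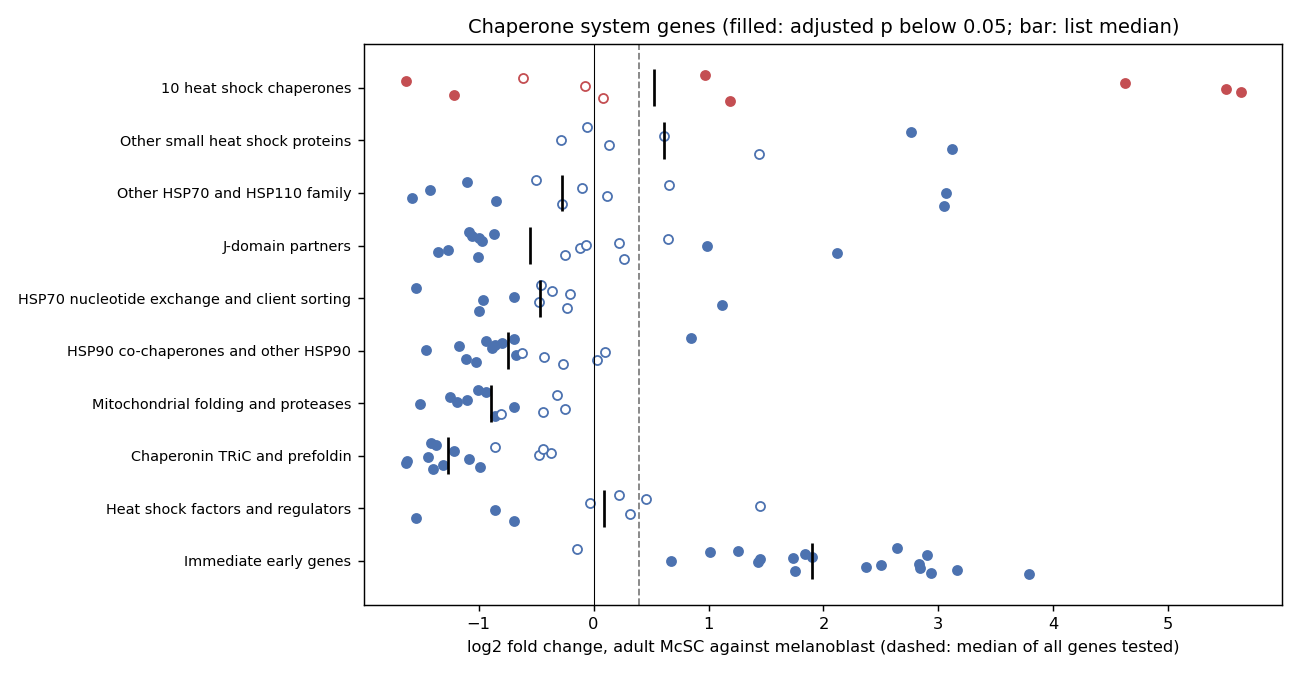
Log2 fold change of adult McSC against melanoblasts for the 10 chaperone genes (red) and the genes of 9 lists (blue); filled points passed at an adjusted p below 0.05, black bars are list medians and the dashed line is the median of all genes tested (0.39). The medians run from -1.26 for TRiC and prefoldin to 1.897 for immediate early genes, and Hspb1, Hspa1a and Hspa1b lie beyond all list genes at 4.63 to 5.63.

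The genes whose profile over the 9 libraries lay nearest to that of Hspb1 were Serpina3n, a serine protease inhibitor, Lgals3, a galectin, Apoc1, an apolipoprotein, and Casp4, a caspase that senses bacterial lipopolysaccharide. Their root mean square distances from Hspb1, in centred log2 CPM, were 0.352, 0.370, 0.382 and 0.398, among 8455 genes with a mean of at least 10 CPM. Serpina3n averaged 1.21, 37.6 and 21.7 CPM, Lgals3 7.10, 185.6 and 101.8 CPM, Apoc1 0.662, 23.6 and 16.5 CPM and Casp4 7.43, 141.6 and 98.6 CPM in melanoblasts, adult and aged McSC. None of the 10 chaperone genes was among these 4. The likeness rests on 9 libraries that differ mainly between melanoblasts and McSC.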

How the data were processed

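RNA of 9 sorted cell pools was amplified from 20 ng with the Ovation system and sequenced as 126-base read pairs, per the labels' protocols. Reads were trimmed with Trimmomatic 0.36 and aligned with STAR 2.5.2 to mm10, per the submitters' processing notes, which also name DESeq2 1.22.2. The authors deposited raw read counts per Ensembl gene, 1 table per library. Not given in the sources used here are the counting program, its annotation, its strand setting and its treatment of reads with several matches, so genes on opposite strands and near-identical copies may share reads. Amplification and PCR mean that reads are not independent molecules, and intervals from counts cover counting error only.

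Symbols, positions and exon lengths came from GENCODE vM21 (GRCm38), which matched 99.5% of the gene identifiers. Counts of 31961 genes that passed filterByExpr were fitted in edgeR 4.0.16 (R 4.3.3) over all 9 libraries with TMM factors and the robust quasi-likelihood test, and p-values were adjusted by Benjamini-Hochberg over all genes of a comparison, with a threshold of 0.05. A prior count of 2 entered each log2 CPM. The alternatives were RLE factors, factors from abundant genes (average log2 CPM above 5), removal of the mitochondrial genome, DESeq2 1.42.0, limma voom (3.58.1) with quality weights, no filter, a stricter filter (5 CPM in 2 libraries), fits of 2 groups only, a replicate block, the summed Hspa1a and Hspa1b counts and the omission of each library. The code was tested on simulated data.

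Named genes were the 10 chaperones, up to 4 genes of smallest p per list in adult McSC against melanoblasts, list genes that passed in aged against adult McSC, the most abundant marker of each cell type with Kit and Sox10, and the 4 genes nearest to Hspb1. The values of 1 gene that this rule names are not reported here. The chaperones, their classes and the lists were chosen with earlier results of these data known. Promoter windows came from RefSeq (GRCm38.p6).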

Additional observations from a re-analysis of the deposited data

How the results depend on the processing

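Fold changes and counts of calls were recomputed under 19 settings and levels per kilobase under 1. Ratios, shares, SDs, motif matches and the genes nearest to Hspb1 were not recomputed. The rises of Hspb1, Hspa1a, Hspa1b and Dnajb1 and the fall of Hspd1 against melanoblasts kept direction and call in all of them, in both McSC groups. Over all settings the adult log2 fold changes were 4.46 to 5.45 for Hspb1, 5.12 to 6.51 for Hspa1a, 5.10 to 6.34 for Hspa1b, 0.94 to 2.05 for Dnajb1 and -1.83 to -0.82 for Hspd1, and Hsp90ab1 ran from -1.39 to -0.41. In aged against adult McSC 1 chaperone gene fell, in place of 0, with limma voom (Hspb1), with no filter and with the replicate block (Hspa1a in both). Over all genes limma voom called 850 up and 670 down, no filter 102 and 241 and the block 40 and 132, against 17 and 80. In aged McSC against melanoblasts 7 rose and 1 fell with factors from abundant genes. That setting called 15341 of all genes higher and 1770 lower, against 6514 and 6491. The falls in this comparison also varied with single libraries left out (4 without melanoblast replicate 3). The cause of these changes was not tested.

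Some signs turned, among them the called falls of Crebbp in adult McSC and of Hspe1 in aged McSC against melanoblasts. With factors from abundant genes, adult McSC against melanoblasts gave 0.75 for Hspa8, 0.24 for Hspe1 and 0.0931 for Crebbp, aged against adult McSC 0.18 for Dnajb1, 0.33 for Hsp90ab1 and 0.35 for Hspd1, and aged McSC against melanoblasts 0.61 for Hspa8 and 0.0408 for Hspe1. With limma voom the adult value of Hsp90aa1 was -0.27, and the aged against adult values were 0.0752 for Dnajb1, 0.0503 for Hsp90ab1 and 0.0582 for Hspd1. With the stricter filter these were 0.0594, 0.19 and 0.21, and Hspa8 was at 0.43 (adult) and 0.15 (aged) against melanoblasts. Hspa8 in adult McSC was also at 0.0576 without the mitochondrial genome, 0.0487 with no filter and 0.0116 in the fit of 2 groups, where Hspd1 in aged against adult McSC was at 0.00900. Over fits that left out 1 library each, adult Hsp90aa1 ran from -0.0849 to 0.25 and Hspa8 from -0.32 to 0.18, and aged against adult Dnajb1 ran from -0.25 to 0.22, Hsp90ab1 from -0.28 to 0.20 and Hspd1 from -0.0677 to 0.0901.

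The replicate numbers were not taken to pair the samples. Correlations of same-numbered deviations ran from -0.08 to 0.20, and those of differently numbered ones from -0.24 to 0.28. With 2 to 4 pools per group these values cannot decide whether the numbers pair samples. With the replicate block Hspa8 in adult McSC was at 0.0727 and Hspa1a in aged against adult McSC at -1.28 (adjusted p = 0.0263). Over all genes, calls in aged against adult McSC ran from 3 to 850 up and 10 to 670 down, against 17 and 80. In adult McSC against melanoblasts they ran from 3526 to 10416 up and 1985 to 7263 down. In aged McSC against melanoblasts they ran from 3127 to 15341 up and 1770 to 7538 down. The aged group has 2 pools, and Hspb1, Hspa1a and Hspa1b have low counts in melanoblasts.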
